A study of Mus musculus with 6 samples.

Results

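The 10 genes described here encode the main glucose transporter of erythroid cells and 9 enzymes of the glycolytic chain. They are Slc2a1, Hk1, Gpi1, Pfkl, Aldoa, Tpi1, Pgk1, Eno1, Pkm and Ldha. The set was listed by name, without a cutoff on measured values, but with earlier results of these data known. Each symbol stood on a single row naming no other gene, so the set took 10 of the 23119 rows of the expression table, and all 10 passed the filter of a mean of at least 1 RPKM that 8302 rows passed. RPKM is the number of reads scaled to transcript length and to the mapped reads of the library. The libraries came from fetal liver erythroid cells of C57BL/6 mice, sorted as CD71+Ter119+ at embryonic day 13.5, with 3 libraries labelled Tfam KO and 3 labelled Tfam WT. Tfam encodes a factor that packages and transcribes mitochondrial DNA, and the comparison asks which transcripts differ in erythroblasts from mice in which it was deleted. The labels name no Cre driver, promoter, litter or sex, do not say which cells carry the deletion, and do not say whether replicates were separate embryos, which leaves the spread among these libraries as all that a p-value here reflects.

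Glycolysis splits glucose into pyruvate in the cytosol and yields ATP without mitochondria. Lactate dehydrogenase turns pyruvate into lactate and so returns the cofactor that the chain consumes. Mature red cells have lost their mitochondria and depend on this chain for ATP, whereas the erythroblasts from which they form still respire. Most of its steps can be carried out by more than one isozyme, and red cells use a particular set of them. Many of the genes are also targets of the hypoxia-inducible factors, which bind a short core sequence near gene starts.

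Several properties of the libraries bear on the values below. Tfam was at 5.92, 7.22 and 6.25 RPKM in the libraries labelled KO and at 7.22, 8.44 and 5.72 RPKM in those labelled WT, with overlapping groups (p = 0.7 by a two-sided exact permutation test that cannot go below 0.1). Gene-level values do not separate the exons of a partly deleted gene, and KO and WT name libraries by their labels only. WT replicate 3 stood apart, with an RPKM sum of 815524 against 423263 to 535933 in the other libraries. It favoured short transcripts. The median log2 deviation of this library from the 6-library mean was 0.65 in the shortest 20% of transcripts and -0.52 in the longest 20%. The erythroid marker Slc4a1, the band 3 anion exchanger, was high in all libraries (3331 to 4681 RPKM in KO libraries and 3494 to 4164 in WT libraries). Summed markers of other cell types were low beside it and varied among libraries. Hepatocyte markers summed to 83.0, 140.1 and 16.0 RPKM in the KO libraries and to 88.3, 57.4 and 43.8 RPKM in the WT libraries, with 0 of 11 markers higher or lower in every KO library than in every WT library (3.21% and 2.16% of the 15868 rows with any value above 0). Megakaryocyte markers summed to 77.0, 88.6 and 30.4 RPKM in KO and to 78.2, 73.7 and 43.4 RPKM in WT. Neutrophil markers summed to 27.4, 69.2 and 50.4 RPKM in KO and to 37.9, 38.2 and 160.2 RPKM in WT. Macrophage markers summed to 7.93, 12.0 and 4.67 RPKM in KO and to 13.4, 12.5 and 19.1 RPKM in WT, with 5 of the 10 markers found lower in every KO library than in every WT library, against 2.16% of those rows. Endothelial markers summed to at most 1.51 RPKM and lymphoid markers to at most 0.260 RPKM in any library, with the lymphoid marker Cd3e listed at 0 throughout. The part of other cell types in the differences below was not tested, and in bulk samples more cells of a type and more RNA per cell cannot be told apart.

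Seen together, 8 of the 10 genes had a higher fitted value in the KO libraries. These were Slc2a1, Gpi1, Aldoa, Tpi1, Pgk1, Eno1, Pkm and Ldha, while Hk1 and Pfkl had slightly lower ones that turned slightly higher after quantile normalization. Among all tested rows 47% had a higher fitted value. The median log2 fold change was 0.28 over the 10 genes and -0.02 over all tested rows. No gene passed the test, which was limma on log2(RPKM + 1) with Benjamini-Hochberg adjustment over the 8302 tested rows. The count past an adjusted p of 0.05 was 0 of 10 (0% of all tested rows), and adjusted p was 0.909 to 0.942 over the members. At an unadjusted p under 0.05 there were 4 of 10, all higher in KO (Gpi1, Aldoa, Pgk1 and Pkm), against 0.747% of tested rows that were higher in KO at that level. For 3 of 10 (Gpi1, Aldoa and Pgk1) every KO library lay above every WT library, as was the case in 2.18% of all tested rows. For 0 of 10 did every KO library lie below every WT library, against 2.36% of tested rows. The genes had been selected with earlier results of these data known, so these counts describe the set and lend it no independent weight.

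**Figure D1:**
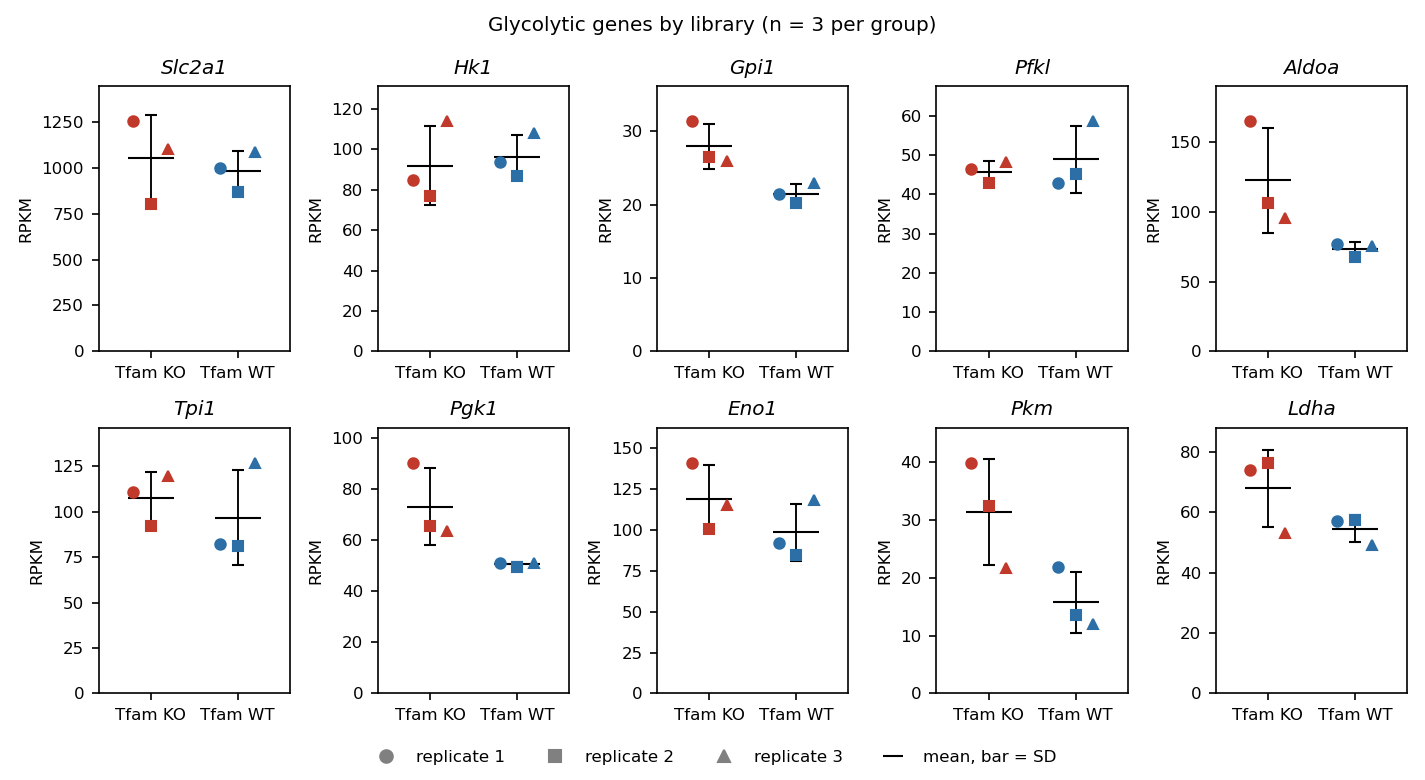
RPKM of the 10 genes (one panel each, vertical axes from 0) in Tfam KO libraries on the left and Tfam WT libraries on the right. Marker shapes give the replicate number, horizontal bars the group mean and vertical bars the SD (n = 3 per group); for Gpi1, Aldoa and Pgk1 the lowest KO point lies above the highest WT point, and KO replicate 1 is the top point in 6 panels.

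The abundance of the transcripts, compared per kilobase as RPKM, spanned a wide range. Slc2a1 averaged 1019 RPKM over the 6 libraries (802 to 1256) and stood far above all the enzymes. Next came Eno1 (108.7 RPKM), Tpi1 (102 RPKM), Aldoa (98.1 RPKM) and Hk1 (94.1 RPKM), whose ranges over the libraries overlapped so widely that their order was not resolved. Pgk1 (61.8 RPKM) and Ldha (61.2 RPKM) could not be ordered either, and the range of Pfkl (47.4 RPKM, 42.9 to 58.8) overlapped with both. Gpi1 (24.7 RPKM) and Pkm (23.6 RPKM) had the lowest levels, with ranges of 20.2 to 31.5 and 12.0 to 40.0 RPKM. Many genes of this pathway have near-identical processed pseudogenes, and how the authors' counting shared reads among such copies is not stated in any source used here, so absolute levels are uncertain.

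Glucose entry and its first phosphorylation showed no separation between groups. Slc2a1 encodes the facilitative transporter that brings glucose across the plasma membrane. It was at 1256, 802 and 1104 RPKM in the KO libraries and at 999, 869 and 1085 RPKM in the WT libraries. The KO libraries held both the highest and the lowest value, at a log2 fold change of 0.08 (95% interval -0.61 to 0.77). Hk1 encodes the hexokinase that traps glucose inside the cell as glucose phosphate. Its level was 84.7, 76.9 and 114 RPKM in KO, against 93.9, 86.5 and 108 RPKM in WT, a log2 fold change of -0.08 (95% interval -0.58 to 0.42). In both groups replicate 3 held the highest Hk1 value, and the groups overlapped over most of their range.

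The next steps isomerise the sugar and add a second phosphate. Gpi1, the phosphoglucose isomerase, was at 31.5, 26.5 and 25.9 RPKM in KO libraries and at 21.4, 20.2 and 22.9 RPKM in WT libraries. All KO values lay above all WT values, and group means were 28.0 ± 3.06 and 21.5 ± 1.36 RPKM (SD, n = 3 each). The log2 fold change was 0.36 (95% interval 0.01 to 0.71, limma adjusted p = 0.909). Pfkl is the liver-type subunit of phosphofructokinase, the main control point of the chain. It was at 46.3, 42.9 and 48.2 RPKM in KO, against 42.9, 45.1 and 58.8 RPKM in WT. The KO libraries lay within the range set by WT to within 0.1 RPKM, and the WT mean was raised by WT replicate 3. With it the log2 fold change was -0.08 (95% interval -0.50 to 0.34), and without it 0.06.

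At the cleavage of the sugar and at the first ATP-yielding step the groups did not overlap, as for Gpi1. Aldoa encodes the aldolase that splits the six-carbon sugar into a pair of triose phosphates. It was at 166, 107 and 95.7 RPKM in the KO libraries, against 77.2, 67.6 and 75.7 RPKM in the WT libraries. Every KO library was above every WT library, with KO replicate 1 at 1.55 times the next highest library. Means were 123 ± 37.6 RPKM in KO and 73.5 ± 5.13 RPKM in WT (SD, n = 3 each), with a log2 fold change of 0.69 (95% interval 0.13 to 1.26, limma adjusted p = 0.909). Pgk1, phosphoglycerate kinase, carries out the first ATP-yielding step. It was at 90.3, 65.4 and 63.5 RPKM in KO, against 51.0, 49.5 and 51.0 RPKM in WT. The WT libraries lay within 2 RPKM of one another, all KO libraries lay above them, and KO replicate 1 was again highest. The log2 fold change of Pgk1 was 0.51 (95% interval 0.06 to 0.95, limma adjusted p = 0.909).

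Tpi1 and Eno1 followed WT replicate 3 as well as the groups. Tpi1, which interconverts the triose phosphates, was at 111, 92.0 and 119.6 RPKM in KO, against 82.0, 81.1 and 127 RPKM in WT. Eno1, the enolase that forms phosphoenolpyruvate, was at 141, 101 and 115 RPKM in KO, against 92.1, 84.9 and 118 RPKM in WT. For both genes WT replicates 1 and 2 lay below every KO library and WT replicate 3 lay among or above them. The log2 fold change was 0.17 (95% interval -0.38 to 0.73) for Tpi1 and 0.39 without WT replicate 3. For Eno1 it was 0.27 (95% interval -0.24 to 0.78), and 0.41 without that library.

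The last steps concern the fate of pyruvate. Pkm encodes the pyruvate kinase of most tissues other than liver and red cells. It was at 40.0, 32.5 and 21.8 RPKM in the KO libraries and at 21.8, 13.6 and 12.0 RPKM in the WT libraries. The groups met at KO replicate 3 and WT replicate 1, which differed by less than 0.1 RPKM. Group means were 31.4 ± 9.15 and 15.8 ± 5.29 RPKM (SD, n = 3 each), the largest fitted difference among the 10 genes, at a log2 fold change of 0.95 (95% interval 0.26 to 1.64, limma adjusted p = 0.909). Summed hepatocyte, megakaryocyte and endothelial markers were lowest in KO replicate 3 and WT replicate 3. These libraries also had the lowest Pkm of their group. Neutrophil and macrophage sums were instead highest in WT replicate 3 (160.2 and 19.1 RPKM). Whether other cell types contributed to the Pkm values was not tested. Ldha, the lactate dehydrogenase subunit of glycolytic tissues, was at 74.0, 76.4 and 53.2 RPKM in KO, against 57.1, 57.3 and 49.3 RPKM in WT. Replicate 3 was the lowest library of each group for Ldha too, and KO replicate 3 lay below WT replicates 1 and 2. Ldha had a log2 fold change of 0.30 (95% interval -0.17 to 0.76).

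**Figure D2:**
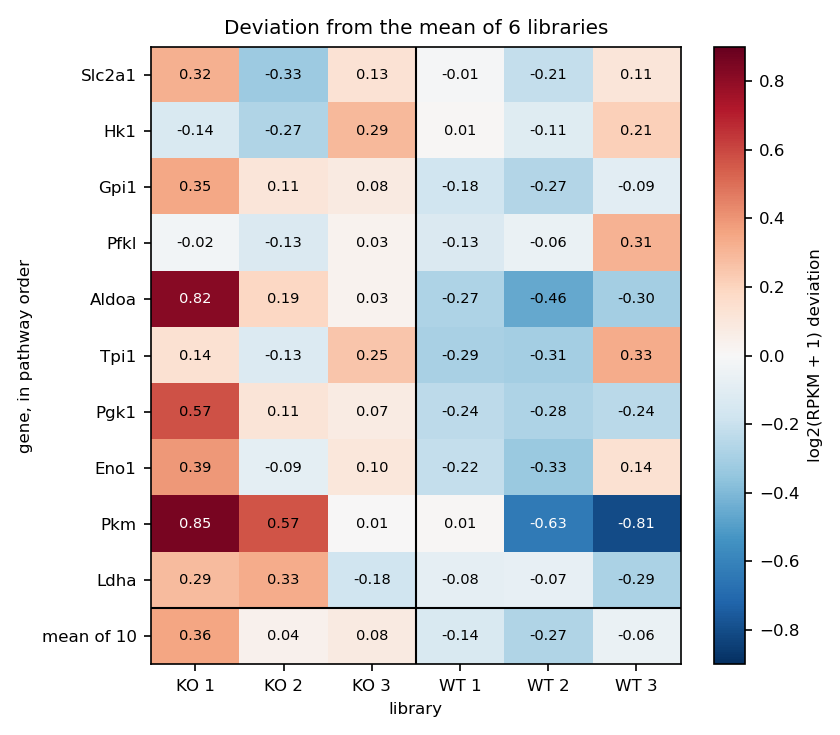
Deviation of log2(RPKM + 1) from each gene's mean over the 6 libraries, with KO libraries left and WT libraries right and genes in pathway order; the last row is the mean of the 10 genes. KO replicate 1 has the highest mean (0.36) and WT replicate 2 the lowest (-0.27), while Hk1 and Pfkl do not follow the mean.

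The 10 genes did not move as a block. In KO replicate 1 their mean log2 deviation was 0.36, against 0.04 and 0.08 in KO replicates 2 and 3 and -0.14, -0.27 and -0.06 in WT replicates 1 to 3. KO replicate 1 held the highest value for 6 genes (Slc2a1, Gpi1, Aldoa, Pgk1, Eno1 and Pkm), and WT replicate 2 the lowest for 5. Gpi1 lay closest to the mean profile, with a root mean squared difference of 0.04, and Pkm farthest, at 0.45. Hk1 (0.29) and Pfkl (0.25) also lay apart, both lowest in KO replicate 2 and above their own mean in replicate 3 of each group. The summed level of the 10 genes was 2040.4, 1422 and 1761 RPKM in KO, against 1538, 1375 and 1708 RPKM in WT, and Slc2a1 made up most of each sum. By the numbers in the labels, 5 genes (Gpi1, Aldoa, Pgk1, Pkm and Ldha) were higher in KO in all 3 same-numbered pairs, against 10.8% of tested rows.

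The values depended on 2 libraries to different degrees. Without KO replicate 1 the median log2 fold change of the 10 genes was 0.19, without WT replicate 3 it was 0.39, and without both it was 0.30. The number fitted higher in KO was 7, 10 and 10 of 10 in these fits. For Gpi1, Aldoa and Pgk1 all remaining KO libraries stayed above all remaining WT libraries in each case, and Tpi1 and Eno1 joined them where WT replicate 3 was left out. That made 3 of 10 without KO replicate 1 (3.23% of tested rows), 5 of 10 without WT replicate 3 (5.42%) and the same 5 of 10 without both (13%). The log2 fold change of Aldoa was 0.46 without KO replicate 1 and 0.71 without WT replicate 3, that of Pgk1 0.35 and 0.51, and that of Gpi1 0.27 and 0.40. Pkm was at 0.76 and 0.79, and at 0.60 without both. Slc2a1 was at -0.06 without KO replicate 1, against 0.08 with it. No member passed an adjusted p of 0.05 in any of these fits, while 1 row outside the set passed without WT replicate 3 (0.012% of tested rows) and 6 passed without both libraries (0.0723%). At an unadjusted limma p under 0.05, 0 of 10 members were higher in KO without KO replicate 1 (15 of 8302 tested rows). There were 5 of 10 without WT replicate 3 (125 rows) and 3 of 10 without both (123 rows). Leaving out WT replicate 1 or WT replicate 2 left 1 of 10 each (45 and 81 rows). Leaving out KO replicate 2 or KO replicate 3 left 3 and 4 of 10 (43 and 74 rows).

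**Figure D3:**
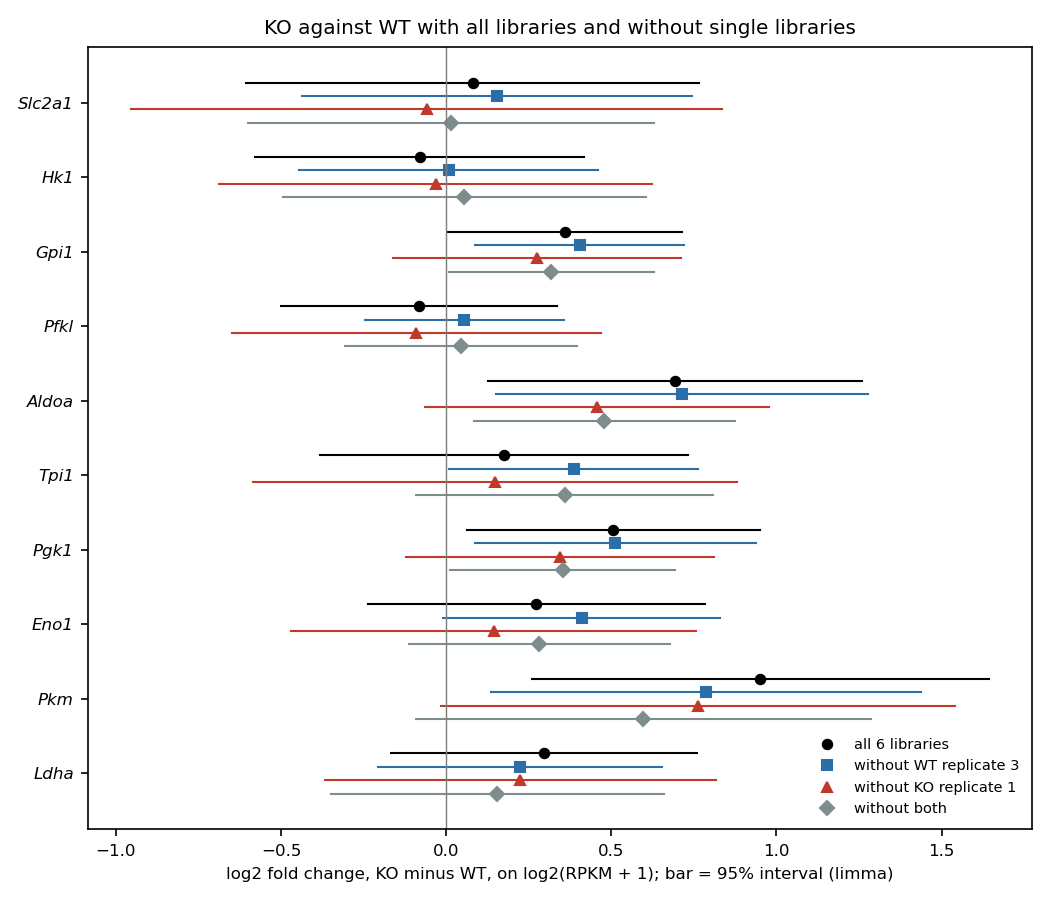
Log2 fold change of each gene, KO minus WT, on the log2(RPKM + 1) scale, with 95% intervals from limma, for all 6 libraries (black circles), without WT replicate 3 (blue squares), without KO replicate 1 (red triangles) and without both (grey diamonds). The points of Gpi1, Aldoa, Tpi1, Pgk1, Eno1, Pkm and Ldha lie to the right of 0 in each fit. The intervals of Tpi1, Eno1 and Ldha cross 0 with all 6 libraries. Without KO replicate 1 the intervals of all 10 genes include 0. Those of 5 genes lie clear of 0 without WT replicate 3, and those of 3 genes without both. The points of Slc2a1, Hk1 and Pfkl lie close to 0 and change side.

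Transcript length was examined because WT replicate 3 had relatively higher values for short transcripts. The longest annotated transcript was 1549 bases for Aldoa, 1607 for Tpi1, 1815 for Ldha, 1825 for Pgk1, 2027 for Eno1 and 2432 for Pkm, and 3195 to 4278 bases for Gpi1, Slc2a1, Pfkl and Hk1. With trends of length and GC content removed from each library, the log2 fold change was 0.91 for Aldoa, 0.66 for Pgk1, 0.45 for Ldha, 0.43 for Eno1 and 0.36 for Tpi1, each larger than as deposited. It was 0.36 for Gpi1, 0.08 for Slc2a1, -0.12 for Hk1 and -0.09 for Pfkl, close to the values as deposited. The lowest adjusted p of any member in any fit was 0.278, for Pkm with these trends removed and the replicate number as a block (log2 fold change 1.07).

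The isozymes sharing a step were compared as percentages of their summed RPKM within a library, a measure that does not move with library scale. Pyruvate kinase was almost wholly Pklr, the isozyme gene of liver and red cells, at 361, 339.9 and 383 RPKM in KO, against 407, 376 and 303 RPKM in WT. Pkm made up 9.97%, 8.74% and 5.38% of pyruvate kinase in the KO libraries and 5.09%, 3.49% and 3.80% in the WT libraries. The share was higher in every KO library than in every WT library, with means of 8.03% ± 2.38 and 4.13% ± 0.849 (SD, n = 3 each). The exact two-sided permutation p was 0.1, the smallest this design allows, and 0.467 after Benjamini-Hochberg adjustment over the 7 shares. Without KO replicate 1 the difference was 2.93 percentage points in place of 3.90.

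In the other 6 families the listed member was the main transcript in every library. Pfkl made up 68.3% to 70.3% of phosphofructokinase in KO and 66.9% to 69.7% in WT, with the muscle-type Pfkm next at 12.1 to 15.6 RPKM in KO and 13.4 to 19.4 RPKM in WT. Slc2a1 made up 93.7% to 95.7% of its transporter trio in KO and 93.9% to 96.0% in WT. The insulin-responsive transporter Slc2a4 was at 45.5, 39.3 and 39.2 RPKM in KO, against 46.9, 43.5 and 39.7 RPKM in WT. Slc2a3, a transporter of high glucose affinity known from neurons, was at 17.2, 14.3 and 10.7 RPKM in KO, against 14.1, 12.9 and 5.69 RPKM in WT. Hk1, Aldoa, Eno1 and Ldha each made up over 95% of their families in every library. Among their isozymes Hk2, Hk3 and Ldhb reached at most 0.500 RPKM in any library, and Eno2 was listed at 0. The exact p of these 6 shares was 0.2 to 1, and their adjusted p 0.467 to 1.

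**Figure D4:**
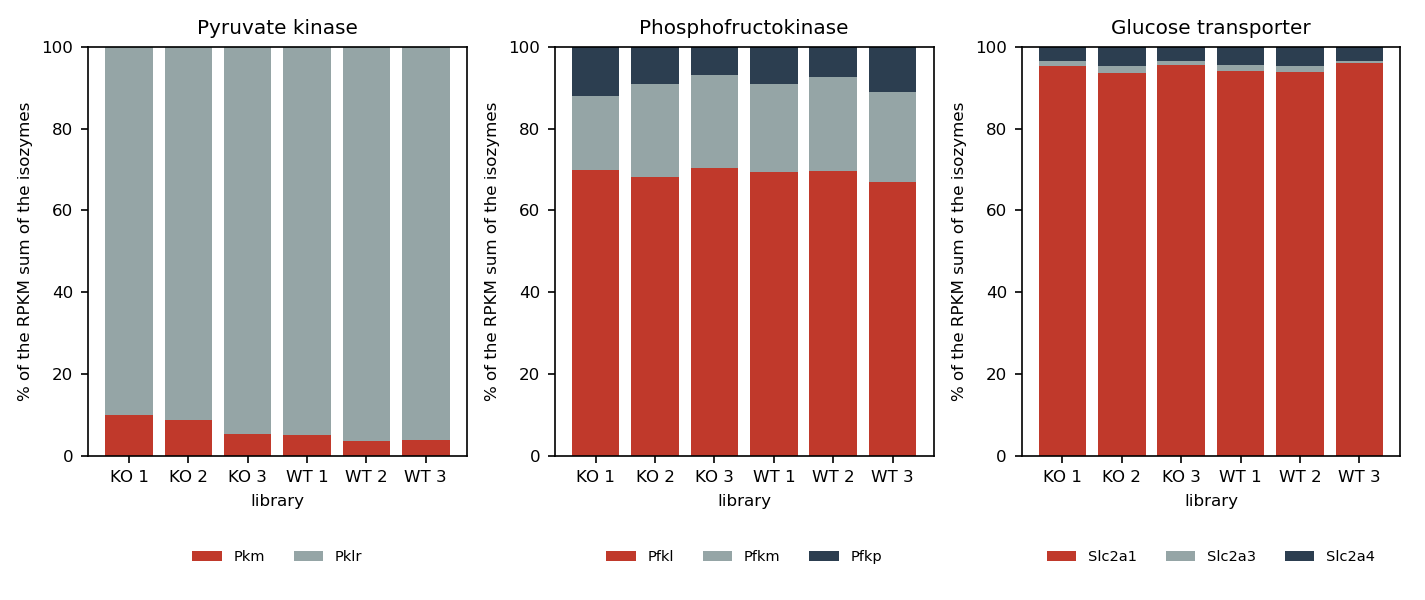
Percentage of the summed RPKM of each isozyme family contributed by its members, per library (KO left, WT right), for pyruvate kinase, phosphofructokinase and the glucose transporters. The Pkm segment is 9.97%, 8.74% and 5.38% in KO and 5.09%, 3.49% and 3.80% in WT, while the Pfkl and Slc2a1 segments differ by a few percentage points among libraries.

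The remaining genes of the chain were measured in the same libraries. Of 21 further transporter and enzyme genes, 10 were tested, 6 were fitted higher and 4 lower in KO, 0 passed, and their median log2 fold change was 0.01. It was 0.11 without WT replicate 3 (7 higher and 3 lower) and -0.09 without WT replicate 2 (4 higher and 6 lower). Gapdh, the enzyme between Tpi1 and Pgk1, was at 362, 373 and 413 RPKM in KO, against 341, 302 and 522 RPKM in WT, with a log2 fold change of 0.02 (95% interval -0.62 to 0.65), and 0.25 without WT replicate 3. Pgam1, the mutase between Pgk1 and Eno1, was at 34.7, 24.5 and 31.1 RPKM in KO, against 23.9, 20.9 and 34.1 RPKM in WT. As with Tpi1 and Eno1, WT replicate 3 was the highest or nearly the highest library for both. Bpgm, which makes the red cell bisphosphoglycerate that lowers the oxygen affinity of haemoglobin, was at 409.8, 364 and 559 RPKM in KO, against 353, 232 and 919 RPKM in WT. The only tested row of this list with no overlap had KO higher, as in 2.18% of all tested rows. It joins Gapdhs, a sperm isozyme, with Sbsn. Its 2.28 ± 0.261 RPKM in KO and 1.48 ± 0.417 RPKM in WT (SD, n = 3 each) cannot be assigned to either gene. Whether the members differed from these genes was not tested.

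Control and outflow of the chain were also measured. Of 5 listed flux regulators 2 were tested, and 0 passed. Pfkfb1, a bifunctional enzyme that sets the activator of phosphofructokinase, averaged 4.02 ± 0.270 RPKM in KO (SD, n = 3), against 4.37, 4.70 and 8.93 RPKM in WT. The groups did not overlap, with KO lower, as in 2.36% of all tested rows, and WT replicate 3 was far above the rest. The log2 fold change of Pfkfb1 was -0.42 (95% interval -1.01 to 0.16), and -0.14 without WT replicate 3. Pfkfb2, a related enzyme, was at 16.5, 14.7 and 12.0 RPKM in KO, against 12.9, 15.4 and 4.04 RPKM in WT. Of 13 genes of lactate and pyruvate handling 10 were tested, 5 were fitted higher and 5 lower, and 0 passed, with a median of -0.02. Without WT replicate 3 the split was 8 higher and 2 lower, with a median of 0.05. The lactate exporter Slc16a3 was at 34.4, 21.5 and 30.6 RPKM in KO, against 20.1, 19.1 and 23.6 RPKM in WT, so the groups overlapped only between KO replicate 2 and WT replicate 3 (log2 fold change 0.42, 95% interval -0.07 to 0.91). The more abundant lactate transporter Slc16a1 was at 104, 89.8 and 136 RPKM in KO, against 102, 109 and 138 RPKM in WT. Pdk1, a kinase that keeps pyruvate out of mitochondrial oxidation, was at 9.34, 7.62 and 8.43 RPKM in KO, against 6.99, 7.86 and 6.11 RPKM in WT. Among regulators of these genes, Hif1a was at 5.12, 3.92 and 3.80 RPKM in KO, against 3.95, 4.61 and 1.05 RPKM in WT, with its lowest value in WT replicate 3.

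Promoter sequence was examined because the hypoxia-inducible factors are known regulators of this pathway. The sequences are the 250 bases before an annotated start, from RefSeq on build GRCm38.p6, whereas the expression values rest on build mm9. All 10 genes matched the promoter table, with 17 starts in all. The motif searched was ACGTG, a form of the core that hypoxia-inducible factors bind, on both strands, so its reverse complement CACGT also counts. Other forms of that core were not searched. The palindrome CACGTG, bound by Myc-type factors, contains the motif on either strand. The 5 promoters printed are those of the 3 genes whose groups did not overlap, of Pkm, and of Ldha, which held the most matches, each at the start with the most matches (of 2 equal starts of Aldoa, the upstream one). They lie at chr7:34230337-34230586 (minus strand) for Gpi1, chr7:126799255-126799504 (minus strand) for Aldoa, chrX:106186850-106187099 (plus strand) for Pgk1, chr9:59656977-59657226 (plus strand) for Pkm and chr7:46845554-46845803 (plus strand) for Ldha. Each runs 5′ to 3′ along its gene, and capitals mark ACGTG or CACGT.
Gpi1: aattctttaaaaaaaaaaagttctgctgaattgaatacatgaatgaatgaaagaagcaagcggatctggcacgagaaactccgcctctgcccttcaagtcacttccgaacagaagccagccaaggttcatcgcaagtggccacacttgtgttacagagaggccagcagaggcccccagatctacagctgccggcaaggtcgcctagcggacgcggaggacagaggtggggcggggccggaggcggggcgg
Aldoa: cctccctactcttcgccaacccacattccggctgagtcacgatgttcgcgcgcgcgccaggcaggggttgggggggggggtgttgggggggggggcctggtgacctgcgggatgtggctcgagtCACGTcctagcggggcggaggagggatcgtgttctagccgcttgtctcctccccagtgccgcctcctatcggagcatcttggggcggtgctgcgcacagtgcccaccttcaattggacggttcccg
Pgk1: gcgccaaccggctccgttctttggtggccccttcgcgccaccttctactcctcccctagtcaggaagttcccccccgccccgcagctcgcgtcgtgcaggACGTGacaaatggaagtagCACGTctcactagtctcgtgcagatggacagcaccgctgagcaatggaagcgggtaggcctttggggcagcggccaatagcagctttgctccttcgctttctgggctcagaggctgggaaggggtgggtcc
Pkm: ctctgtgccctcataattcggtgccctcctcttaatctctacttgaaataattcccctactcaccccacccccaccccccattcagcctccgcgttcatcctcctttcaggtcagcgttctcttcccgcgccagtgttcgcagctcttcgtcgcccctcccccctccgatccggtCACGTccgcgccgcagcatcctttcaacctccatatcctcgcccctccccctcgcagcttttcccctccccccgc
Ldha: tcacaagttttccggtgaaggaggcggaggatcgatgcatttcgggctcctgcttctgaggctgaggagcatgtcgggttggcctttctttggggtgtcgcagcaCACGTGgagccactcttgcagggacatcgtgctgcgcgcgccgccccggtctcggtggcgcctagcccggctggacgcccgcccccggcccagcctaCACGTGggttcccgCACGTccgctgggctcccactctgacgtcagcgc

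By these letters 5 of the 10 genes (Slc2a1, Aldoa, Pgk1, Pkm and Ldha) held the motif before at least 1 start, against 18.5% of the 27025 genes in the table. Counted by promoter, 6 of the 17 promoters of the 10 genes (35.3%) held it, against 16.6% of the 32851 promoters of the same length. Of these 6, 2 are overlapping Aldoa promoters that hold the same match, which is thus counted for both. The comparison promoters were not matched for GC content or expression, so these percentages do not establish an enrichment. Pgk1 held 2 matches, one on each strand, and Aldoa and Pkm 1 each. Ldha held 2 copies of CACGTG, each read on both strands, and a further CACGT, while CACGTG was present in 6.02% of promoters. Gpi1, whose KO libraries all lay above the WT libraries, had no match in this window, and Slc2a1, whose groups overlapped, had 1. A match describes letters only, and binding was not measured.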

How the data were processed

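RNA of 6 libraries was measured by sequencing. The deposited values are RPKM for 23119 rows, made with TopHat and Cufflinks on build mm9 per the submitters' processing notes. Versions, annotation and strand setting are not stated in any source used here, and absolute read depth is unknown, so no counting intervals are given. Rows named by a number (25, a mean of 0.158% of the RPKM sum) were left out. Where a symbol had several rows, the one of highest mean was used.

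From these RPKM values log2(RPKM + 1) was computed, and KO was compared with WT in limma 3.58.1 (R 4.3.3) with a mean-variance trend, over the 8302 rows with a mean of at least 1 RPKM and with Benjamini-Hochberg adjustment. Fold changes on this scale understate changes of low genes. Isozyme shares were compared with exact two-sided permutation tests. Lengths and GC content came from the longest GENCODE M21 transcript and were found for 95.5% of tested rows and all 10 members. The procedure was tested on simulated data with planted log2 changes of size 2 or 4. It recovered 89% and 99% of these, with 14 false calls among 202 calls. The fitted changes of the members were smaller, so recovery of changes of their size was not tested. Figures were drawn with matplotlib 3.10.9.

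The members, lists and tests were chosen with earlier results of these data known. The genes named are the members, Tfam, genes of the pathway and marker lists, and the 5 genes nearest to the members' mean profile. Deviations from group means correlated at 0.46, 0.17 and 0.53 between libraries numbered 1, 2 and 3, each over 0.1, the level set for reading equal numbers as pairs. The reported fits and permutation tests are unpaired, and a fit with the replicate number as a block was an alternative. The pairing comes from this check and from no label, and KO replicate 1 also correlated with WT replicate 2 (0.40). Deviations from the mean of 3 libraries sum to 0, so these correlations depend on one another and the check cannot establish pairs. Alternatives were another pseudocount, other filters, other scalings, no trend, the replicate block, length and GC trends removed, and each library left out.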

Additional observations from a re-analysis of the deposited data

How the results depend on the processing

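No member passed an adjusted p of 0.05 in any alternative run. The count of all tested rows passing was 0 as reported, 0 to 2 with single libraries left out and 6 without both KO replicate 1 and WT replicate 3. The rows passing with 1 library left out were Mir135a-1 and Snord88c without KO replicate 2, Snord96a without KO replicate 3 and Snord67 without WT replicate 3, all chosen after their values were seen. Rows at an unadjusted p under 0.05 numbered 100 as reported, 324 with the replicate block and 592 with the block and length and GC trends removed. The replicate block left 0 calls, as did all other settings with 6 libraries, and changed no call. The median log2 fold change of the members was 0.19 to 0.39 with single libraries left out, 0.42 after quantile normalization and 0.40 with length and GC trends removed.

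Directions turned for small differences only. Hk1 was at 0.060 after quantile normalization and 0.055 without both libraries, and from -0.24 to 0.037 with single libraries left out. Pfkl was at 0.044 after quantile normalization and 0.046 without both, and from -0.17 to 0.055 with single libraries left out. Slc2a1 ranged from -0.059 to 0.26 and Tfam from -0.24 to 0.0032 with single libraries left out. In percentage points the Slc2a1 share differed by -0.0033 to 0.81 and the Pfkl share by -0.084 to 0.64 without KO replicate 1 or WT replicate 3, and the Pfkl share by 1.65 with length and GC trends removed, against 0.82 as deposited. The Ldha share differed by -0.10 to -0.026 without those libraries and by -0.19 with length and GC trends removed. The cause was not tested. The other 7 members kept their sign in all 16 alternatives, among them Pkm (0.60 to 1.20) and Aldoa (0.46 to 0.91). With 3 libraries a group precision was low, as the 95% interval of Pkm (0.26 to 1.64) shows.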

Other observations

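Genes of the pentose phosphate pathway, which branches from glycolysis at glucose phosphate, had mean levels between 11.9 RPKM (Rpe, an epimerase) and 685 RPKM (Taldo1). Taldo1, a transaldolase, was at 518, 478 and 717 RPKM in KO, against 613, 472 and 1309.9 RPKM in WT, and the row of the transketolase Tkt, shared with Mir3076, was at 153, 138 and 186 RPKM in KO, against 157, 144 and 216 RPKM in WT. G6pdx, which opens the pathway, was at 45.3, 38.9 and 52.4 RPKM in KO, against 49.4, 41.3 and 43.6 RPKM in WT. Of its 7 listed genes, all tested, 4 were fitted higher and 3 lower in KO, the median log2 fold change was 0.006, and 0 passed the limma test. WT replicate 3 held the highest Taldo1, Tkt and Pgls (68.2 RPKM, against 25.3 to 31.4 in the other libraries). The split turned on single libraries, with 7 higher and 0 lower (median 0.07) without WT replicate 3, 1 higher and 6 lower (median -0.09) without WT replicate 2, and 2 higher and 5 lower without KO replicate 3.

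Of 9 genes of glycogen metabolism and glucose synthesis 3 were tested and 0 passed. Gys1, the glycogen synthase of most tissues other than liver, lay below the filter, at 0.529, 0.560 and 0.393 RPKM in KO, against 0.316, 0.193 and 0.143 RPKM in WT. Fbp1, an enzyme of glucose synthesis, was listed at 0 in all libraries.

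Among 5369 other single-gene rows with a mean of at least 5 RPKM, the 5 whose log2 deviations lay closest to the mean deviation of the members over the 6 libraries were Dopey2, Pbx2, Frmd8, Hdac5 and Sesn2. Their root mean squared differences were 0.065 to 0.074, by selection the smallest of the 5369. For the members, which are themselves part of that mean, they were 0.04 to 0.45, so the ranges cannot be compared. Hdac5, a histone deacetylase, was at 12.2, 9.13 and 9.40 RPKM in KO, against 7.51, 7.70 and 9.43 RPKM in WT. Sesn2, a stress-induced regulator of growth signalling, was at 6.99, 6.13 and 6.30 RPKM in KO, against 5.48, 4.99 and 5.90 RPKM in WT.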
